A study of Mus musculus with 4 samples.

Results

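The centrosomal genes described here were chosen by name from the gene symbols of the deposited counts: every symbol made of Cep and a number, with or without a paralog suffix such as l or l1, plus Pcnt, Cdk5rap2, Sass6, Plk4 and Stil. This rule matches symbols and uses no measured value, but it was chosen with earlier results of these data known. It gave 39 genes, 34 of the Cep pattern and 5 added by name, of 53677 symbols in the files. Symbols such as Cep170b, Cep295nl and the antisense symbol Cep83os fall outside the pattern and were not counted as members. RNA-seq libraries came from germinal vesicle (GV) oocytes of the mouse, which are arrested in meiotic prophase before maturation. The groups were controls (Ctrl) and a knockdown (Ell3 KD) of Ell3, which encodes an RNA polymerase II elongation factor, with 2 libraries each, and each library pooled 5 oocytes. All females had received 7.5 IU of PMSG, a gonadotropin that stimulates follicles, 48 h before collection. Strain, age, the knockdown reagent and whether the libraries of a group came from separate females are not given in the sources used here, so every p-value rests on a spread between libraries that may be technical. The submitters framed the comparison as a look at whether the knockdown acts on the transcriptome in a way that bears on meiosis.

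A centrosome is a pair of centrioles, cylinders of microtubules, inside a coat of pericentriolar material that nucleates microtubules. New centrioles form when the kinase PLK4, held at the parent centriole by CEP152 and CEP192, acts with STIL to assemble a cartwheel of SAS-6 (encoded by Sass6). The older centriole carries appendages, through which it can dock at the membrane and seed a cilium. Mouse oocytes lose their centrioles during development and build the meiotic spindle from acentriolar microtubule-organizing centers, which hold coat proteins such as pericentrin, CDK5RAP2 and CEP192. The genes of the centriole, the coat, the appendages and the cilium base could nevertheless all be measured as mRNA in these cells.

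The Ctrl libraries summed to 45131278 and 48669267 counts and the deeper Ell3 KD libraries to 89632815 and 65722415, without overlap in depth. The lowest count of a centrosomal gene in any library was 77, so that none was near the limit of detection. The targeted gene Ell3, at 371 and 483 counts in Ctrl, was lower in Ell3 KD at 255 and 181 counts (log2 fold change -1.66 ± 0.14, SE; edgeR adjusted p = 6.04e-10). Serinc4 overlaps 65.6% of Ell3 exon sequence in the same orientation. Of 10 oocyte markers all were detected, with a summed level between 21282 and 21747 CPM (counts scaled to a library total of 1e+06, with TMM factors) in the 4 libraries. Within that sum Dppa3, Oosp1 and Ooep rose by 0.49, 0.46 and 0.40 on the log2 scale, and Nlrp5, Gdf9 and Zp1 fell by 0.23, 0.20 and 0.12 (edgeR). Somatic follicle cells keep their centrioles, and their markers were low. The 12 granulosa and cumulus markers summed to 51.9 and 50.2 CPM in Ctrl and 47.1 and 49.2 CPM in Ell3 KD, mostly from Nr5a2 and Cyp19a1, and Amh, Amhr2 and Foxl2 had no count in Ctrl and at most 0.102 CPM in Ell3 KD. Among the remaining lists, 8 theca and stroma markers summed to between 4.41 and 4.73 CPM. The 6 blood and endothelium markers summed to 63.3 and 60.7 CPM in Ctrl and 47.4 and 50.1 CPM in Ell3 KD, nearly all from Pecam1, with Hba-a1, Hbb-bs and Lyz2 at 0. The 6 markers of ciliated epithelium summed to 26.3 and 24.8 CPM in Ctrl and 20.9 and 22.4 CPM in Ell3 KD, with Foxj1 at 0. Among these somatic and ciliated cell markers Inha, Ptgs2 and Dcn rose and Nr5a2, Pecam1 and Deup1 fell. The part of these small sums in the results that follow was not tested. In pooled oocytes, fewer cells with an mRNA and less of it per cell cannot be told apart.

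Levels between genes are compared per length, as CPM per kb of the longest annotated transcript. The most abundant centrosomal mRNA on this scale was Cep57l1, which encodes a paralog of the coat organizer CEP57 that acts with it to keep centrioles engaged. It lay at 65.6 and 64.6 CPM per kb in Ctrl and at 69.8 and 69.6 in Ell3 KD. Next came Cep164, which encodes a distal appendage protein that docks cilium membranes, at 47.6 and 47.6 in Ctrl and 44.9 and 46.5 in Ell3 KD, and Pcnt, the scaffold pericentrin, at 44.6 and 44.4 in Ctrl and 42.8 and 43.0 in Ell3 KD. Cep70, whose product binds gamma-tubulin, had 40.1 and 41.9 CPM per kb in Ctrl and 38.8 and 39.6 in Ell3 KD. These 4 genes kept their order in every library, with no overlap between neighbours. Plk4 (31.8 to 37.2 CPM per kb over the 4 libraries), Cep85 (30.3 to 37.7) and Cep41 (29.7 to 33.8) followed and did overlap.

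The order ended at Cep97, whose product caps the distal end of centrioles together with CP110 and which lay at 0.409 and 0.392 CPM per kb in Ctrl and 0.318 and 0.303 in Ell3 KD. Of the 38 steps between neighbours in the order, 13 were free of overlap between the libraries of the neighbouring genes. Against all tested genes with an annotated length, whose median was 2.71 CPM per kb, 25 of the 39 centrosomal genes lay above the median, and 1, Cep57l1, lay above the 90th percentile. The kinase and its partners were far apart: Plk4 lay at the 86.4th percentile, the cartwheel gene Sass6 at the 52.6th and Stil at the 28.1th. Per length, Plk4 exceeded Stil 44.9- and 58.9-fold in Ctrl and 58.2- and 55.2-fold in Ell3 KD. Per merged exon length it did so 24.6- and 32.2-fold in Ctrl and 31.9- and 30.3-fold in Ell3 KD. The coat genes were also unequal, with Pcnt at 43.7, Cep192 at 3.82 and Cdk5rap2 at 3.10 CPM per kb as means of the 4 libraries. The linker gene Cep250, whose product tethers the parent centrioles to each other, was among the lowest, at 0.502 and 0.513 CPM per kb in Ctrl and 0.676 and 0.698 in Ell3 KD. Which isoforms the oocyte uses, the length of their poly(A) tails and the coverage along each transcript were not measured. Differences in level between genes may therefore not be differences in the number of mRNA molecules. With the merged exon length in place of the longest transcript, a choice made after seeing the data, 5 of the same 6 genes led and Pcnt came before Cep164 and Cep57l1.

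**Figure D1:**
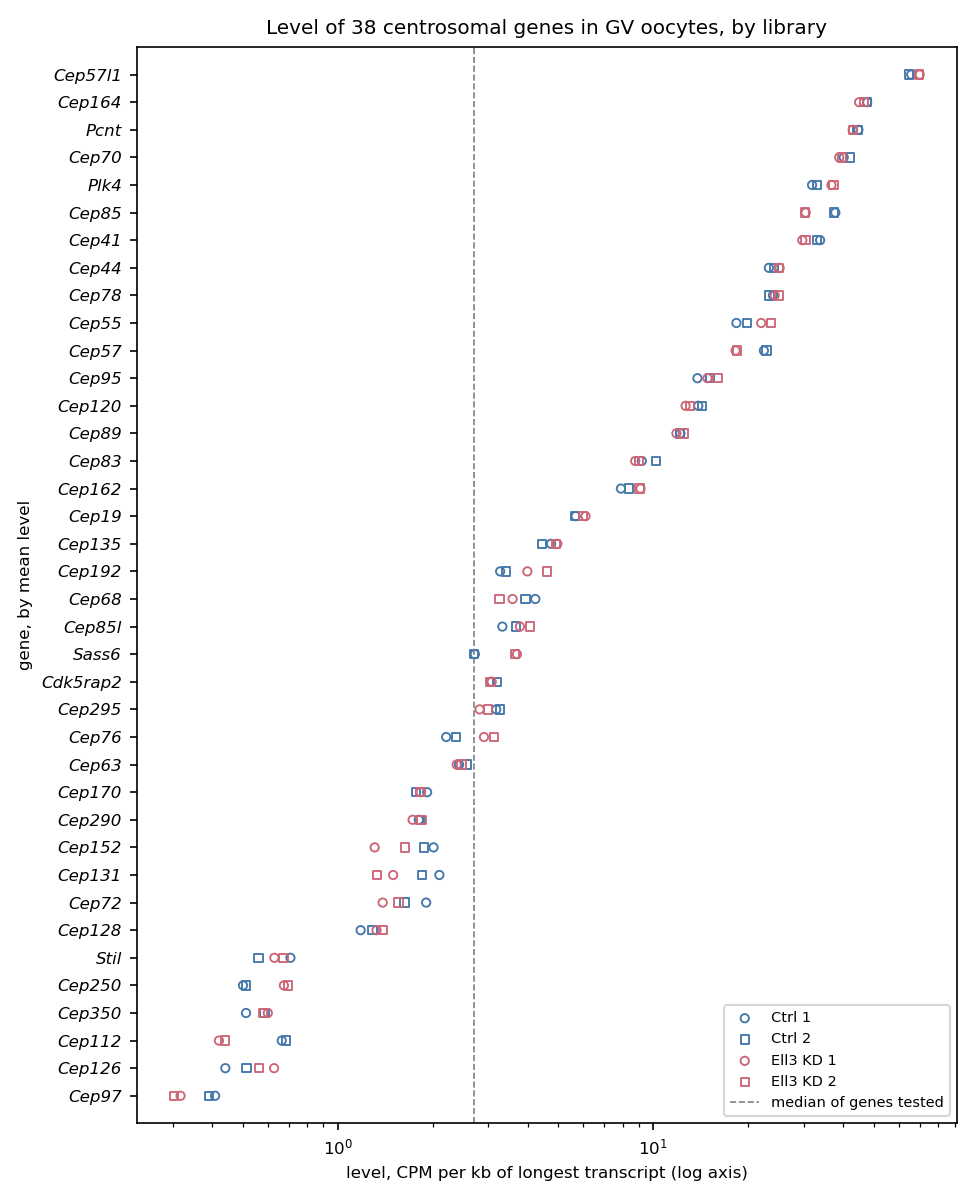
Level of 38 of the 39 centrosomal genes in CPM per kb of its longest annotated transcript (log axis), with 1 point per library, circles for replicate 1 and squares for replicate 2, Ctrl in blue and Ell3 KD in red. The dashed line is the median of the tested genes with an annotated length, 2.71 CPM per kb; Cep57l1 is highest at a mean of 67.4 and Cep97 lowest at 0.355.

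All 39 genes passed the filter on low counts, and 17 of them differed between the groups, 9 higher and 8 lower in Ell3 KD (edgeR, adjusted p under 0.05 over all 17879 genes tested). This is 43.6% of the members, against 42.9% of all genes tested. By direction, 23.1% were higher and 20.5% lower, against 21.1% and 21.8% of all genes tested, so the shares lay near the background. Among genes at a mean of 5 CPM or more, 15 of 34 members (44.1%) were called, against 52.5% of all genes of that class. The median log2 fold change was -0.0014 over the members and -0.0024 over all genes tested. The TMM scaling itself sets the bulk of genes near 0. Each rise or fall given here is therefore relative to the other genes, and the amount of mRNA per oocyte was not measured. The libraries of the groups did not overlap for 31 of the 39 members (79.5%), against 70.7% of all genes tested. Changes were small: the largest rise was 0.44 (Sass6) and the largest fall 0.65 (Cep112) on the log2 scale, no member changed 2-fold, and the 95% interval of 38 of the 39 lay within a 2-fold change either way. The exception was Cep112.

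DESeq2 called 12 of the 17 and lost Cep112, Cep120, Cep250, Cep68 and Cep85l (adjusted p = 0.106, 0.102, 0.0830, 0.0722 and 0.162). Of the 17 calls, 9 held without each library in turn: Sass6, Cep76, Plk4, Cep192, Cep55, Cep41, Cep57, Cep85 and Cep131. Without Ell3 KD replicate 1, or without Ell3 KD replicate 2, 5 members were called lower in place of 8. With an assumed biological coefficient of variation of 0.2, against 0.0421 estimated from these libraries, none of the 39 was called by edgeR, while 861 of all genes were called higher and 1103 lower. The members had a median transcript length of 4804 bases against 2826 bases for the tested genes with an annotated length, and 30 of the 39 were longer than that. After a correction for transcript length and GC content, 11 members were called higher and 6 lower, and the median moved to 0.06, against 0.01 over all genes.

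**Figure D2:**
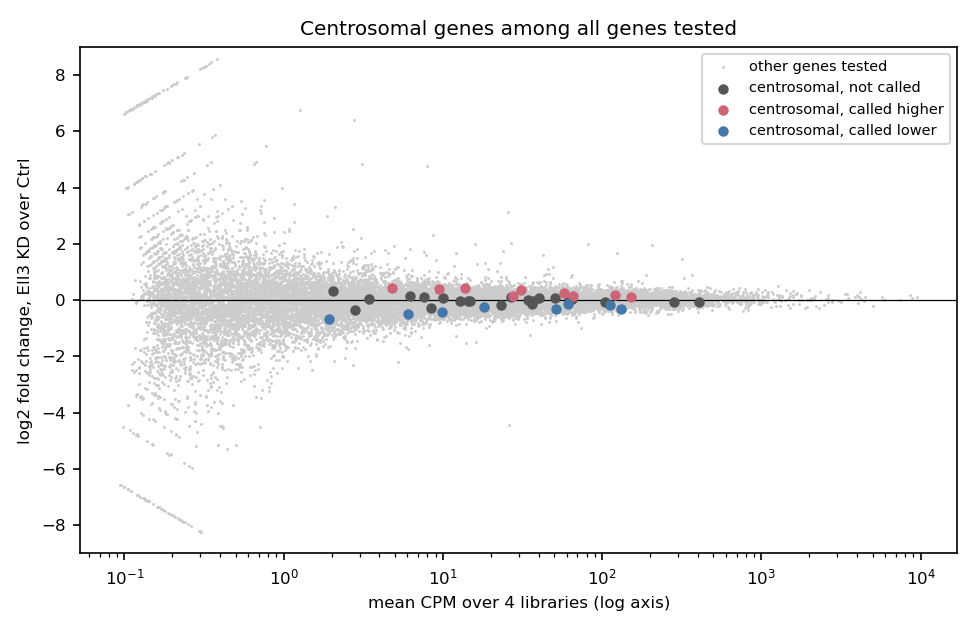
Log2 fold change of Ell3 KD over Ctrl against the mean CPM of the 4 libraries (log axis) for every gene tested, with the centrosomal genes as larger points in red (called higher), blue (called lower) or dark grey (not called). The members lie between -0.65 and 0.44, inside the cloud of genes at the same level.

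**Figure D3:**
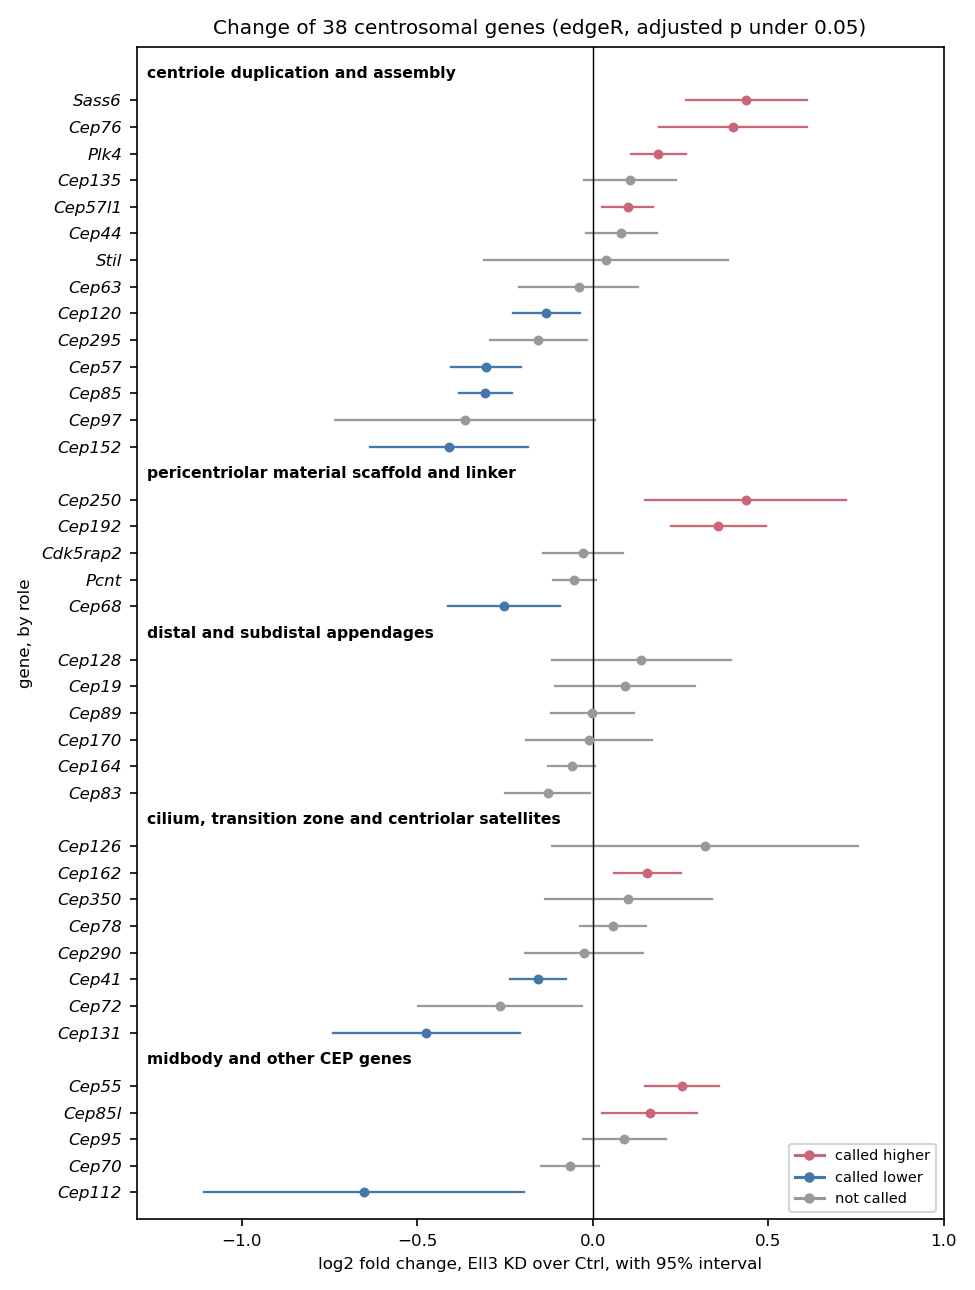
Log2 fold change of 38 of the 39 centrosomal genes (points) with their 95% intervals (lines), grouped by role and colored by their edgeR call at an adjusted p under 0.05. Genes of centriole duplication lie on both sides of 0 and none of the 6 appendage members was called.

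Genes of centriole duplication and assembly moved in both directions: of 14, 4 rose (28.6%), 4 fell (28.6%) and 6 were not called, with a median log2 fold change of -0.0012. These shares stand against 21.1% and 21.8% of all genes tested, and nothing is read from counts this small. The list holds Cep57 and Cep57l1, which could also be placed with the coat genes. Sass6, the cartwheel gene, had 11.8 and 11.7 CPM in Ctrl and 16.1 and 15.8 CPM in Ell3 KD. Both Ell3 KD libraries lay above both Ctrl libraries (log2 fold change 0.44 ± 0.08, edgeR adjusted p = 1.42e-04). Of its exon length, 30.9% overlaps annotations on the opposite strand, and whether the counting used strand is not given in the sources used here. Its largest partner, Gm42893, had no count in any library, and Trmt13 lay between 18.5 and 19.96 CPM in the 4 libraries (edgeR adjusted p = 0.619). Plk4 had 110.8 and 115.1 CPM in Ctrl and 127.6 and 129.5 CPM in Ell3 KD, 1.14-fold higher (log2 fold change 0.19 ± 0.04, edgeR adjusted p = 3.20e-04). Cep76, whose product restrains centriole reduplication, went from 7.90 and 8.47 to 10.4 and 11.2 CPM (0.40 ± 0.10, edgeR adjusted p = 0.00262). Stil had 3.81 and 3.02 CPM in Ctrl and 3.39 and 3.62 CPM in Ell3 KD, overlapping between groups (0.04 ± 0.17, edgeR adjusted p = 0.881), and its 95% interval reached from -0.31 to 0.39.

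Among the genes that fell, Cep85 had the smallest p of all members. It encodes a partner of STIL that promotes PLK4 activation, and it went from 146.9 and 145.4 CPM in Ctrl to 118.3 and 118.0 CPM in Ell3 KD (log2 fold change -0.31 ± 0.04, edgeR adjusted p = 2.39e-07). Cep57, which encodes an organizer of the coat around the centriole, went from 56.5 and 57.6 to 46.0 and 46.5 CPM (-0.30 ± 0.05, edgeR adjusted p = 1.52e-05). Cep152, the PLK4 receptor gene, was lower at 7.56 and 9.42 CPM in Ell3 KD against 11.6 and 10.8 CPM in Ctrl (-0.41 ± 0.11, edgeR adjusted p = 0.00371). The Ell3 KD libraries differed from each other, and without Ell3 KD replicate 1 the call of Cep152 was lost (-0.25, edgeR adjusted p = 0.139). Cep120, a centriole elongation gene, fell by 0.13 ± 0.05, from 63.2 and 65.1 to 57.6 and 59.5 CPM (edgeR adjusted p = 0.0222). That call was lost without Ctrl replicate 2 (-0.11), without Ell3 KD replicate 1 (-0.11) and without Ell3 KD replicate 2 (-0.15). Of the other genes of this role, Cep63, Cep135, Cep295, Cep44 and Cep97 had log2 fold changes of -0.04, 0.11, -0.15, 0.08 and -0.36 and were not called. Their lowest edgeR adjusted p was 0.0646, that of Cep295, whose exons overlap opposite-strand annotations over 19.1% of their length. After thinning each library to the shallowest total, Cep295 was called lower (-0.18, edgeR adjusted p = 0.0470).

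Promoter windows of 5 called members, picked after the calls and the letters were known, are shown as examples with and without CCAAT boxes. The windows run from 250 bases before to 50 bases after a RefSeq start site (GRCm38.p6), and 4 motifs were searched on both strands: the CCAAT box (CCAAT), the cell-cycle CHR element (TTTGAA), an RFX core (GTTGCC) and an ETS core (CCGGAAG). Capitals mark any of them, read on either strand, and no matches of different motifs overlapped in the members' windows. The genes Cep152 (chr2:125625064-125625363, minus strand) and Cep85 (chr4:134187036-134187335, minus strand) fell, and Plk4 (chr3:40799701-40800000, plus strand), Sass6 (chr3:116594708-116595007, plus strand) and Cep85l (chr10:53379834-53380133, minus strand) rose.
Cep152: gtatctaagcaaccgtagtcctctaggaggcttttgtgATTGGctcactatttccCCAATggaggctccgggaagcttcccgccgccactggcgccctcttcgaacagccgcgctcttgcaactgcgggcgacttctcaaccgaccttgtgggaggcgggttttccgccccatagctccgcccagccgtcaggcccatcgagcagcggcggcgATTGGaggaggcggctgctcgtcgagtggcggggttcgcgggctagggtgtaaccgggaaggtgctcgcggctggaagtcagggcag
Cep85: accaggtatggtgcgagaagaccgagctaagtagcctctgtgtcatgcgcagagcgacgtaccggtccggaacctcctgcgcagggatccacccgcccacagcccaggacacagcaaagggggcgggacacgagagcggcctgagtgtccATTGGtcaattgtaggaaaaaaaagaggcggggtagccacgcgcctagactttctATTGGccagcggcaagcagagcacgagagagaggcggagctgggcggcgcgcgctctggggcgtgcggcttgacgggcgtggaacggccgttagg
Plk4: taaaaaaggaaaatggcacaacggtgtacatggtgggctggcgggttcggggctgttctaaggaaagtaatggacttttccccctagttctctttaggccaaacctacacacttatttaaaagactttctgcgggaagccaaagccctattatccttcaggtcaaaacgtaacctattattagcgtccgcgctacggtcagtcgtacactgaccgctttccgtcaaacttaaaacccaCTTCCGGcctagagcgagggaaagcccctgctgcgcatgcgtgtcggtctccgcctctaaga
Sass6: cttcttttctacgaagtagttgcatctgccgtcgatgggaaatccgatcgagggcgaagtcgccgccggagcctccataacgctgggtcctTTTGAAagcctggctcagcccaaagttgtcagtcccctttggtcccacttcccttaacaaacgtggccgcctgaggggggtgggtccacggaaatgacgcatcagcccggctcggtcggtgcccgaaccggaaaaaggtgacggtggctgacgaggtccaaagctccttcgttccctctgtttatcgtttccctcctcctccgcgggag
Cep85l: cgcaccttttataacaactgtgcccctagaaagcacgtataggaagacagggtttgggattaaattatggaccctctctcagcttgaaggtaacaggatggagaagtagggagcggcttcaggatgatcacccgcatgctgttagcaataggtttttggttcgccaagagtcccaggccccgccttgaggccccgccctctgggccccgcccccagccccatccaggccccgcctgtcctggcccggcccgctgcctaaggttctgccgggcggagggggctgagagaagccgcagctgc

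The window of Cep152 held 3 CCAAT boxes and that of Cep85 held 2, whereas those of Plk4, Sass6 and Cep85l held 0. Other called members differed from these examples: a window of Cep57l1, called higher, held 1 CCAAT box, and those of Cep112, called lower, held 0. Of the 39 members, 34 had a window in the RefSeq table. The CCAAT box occurred in 17 of the 34 (50%), against 41.1% of all 27025 genes in the table, in 6 of 7 called lower with a window, 1 of 7 called higher and 10 of 20 not called. The CHR letters occurred in 11 of 34 members (32.4%), against 20.2% of all genes, in 4 of 7 called higher, 1 of 7 called lower and 6 of 20 not called. The RFX core occurred in 7 members (20.6%, against 14.1%) and the ETS core in 6 (17.6%, against 9.93%). The 41 windows of the 34 members, some with more than 1, had a median GC content of 61.3%. The median was 52.7% over 1 window for each gene in the table, expressed in oocytes or not. These are counts of letters in windows around annotated starts, were read after the calls were known and were given no test. The share of each motif among all genes called higher or lower was not counted, so nothing is read from the split by call. The start sites used in these oocytes were not measured.

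Of 5 genes of the pericentriolar coat and the centriole linker, 2 rose (40%) and 1 fell (20%). Of all genes tested 21.1% rose and 21.8% fell, and nothing is read from counts this small. Cep192, which encodes the coat scaffold that also recruits PLK4, Aurora A and gamma-tubulin complexes, had 26.5 and 27.6 CPM in Ctrl and 32.3 and 37.2 CPM in Ell3 KD. The groups did not overlap, although the Ell3 KD libraries were apart from each other (log2 fold change 0.36 ± 0.07, edgeR adjusted p = 1.03e-04). The remaining scaffold genes of the acentriolar centers were not called. Pcnt had 417.0 and 414.3 CPM in Ctrl and 400.1 and 401.7 CPM in Ell3 KD (-0.05 ± 0.03, edgeR adjusted p = 0.171), with a 95% interval from -0.11 to 0.01. Cdk5rap2 had 36.2 and 37.9 CPM in Ctrl and 36.5 and 36.2 CPM in Ell3 KD (-0.03 ± 0.06, edgeR adjusted p = 0.712), with an interval from -0.14 to 0.09. The linker genes went in opposite directions. Cep250 rose from 4.003 and 4.09 to 5.39 and 5.57 CPM (0.44 ± 0.14, edgeR adjusted p = 0.0132), a call lost without Ell3 KD replicate 2 (edgeR adjusted p = 0.0648). Its exons overlap the opposite-strand gene 6430550D23Rik over 11.1% of their length, which itself had 0.437 and 0.709 CPM in Ctrl and 1.16 and 0.665 CPM in Ell3 KD. Cep68 fell from 20.3 and 18.9 to 17.2 and 15.6 CPM (-0.25 ± 0.08, edgeR adjusted p = 0.0104), a call lost without Ctrl replicate 1 (edgeR adjusted p = 0.0826) and without Ell3 KD replicate 2 (edgeR adjusted p = 0.155).

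The paralogs among the members differed in direction. Cep57 fell, as above, while Cep57l1 went from 148.0 and 145.6 to 157.5 and 157.0 CPM (log2 fold change 0.10 ± 0.04, edgeR adjusted p = 0.0272). The ratio of Cep57l1 to Cep57 per length was 2.93 and 2.83 in Ctrl and 3.83 and 3.78 in Ell3 KD. The Cep57l1 call itself was lost without Ctrl replicate 2 (edgeR adjusted p = 0.119), without Ell3 KD replicate 1 (edgeR adjusted p = 0.132) and without Ell3 KD replicate 2 (edgeR adjusted p = 0.102). Cep85 fell and Cep85l, known for a part in neuronal migration, went from 24.7 and 27.2 to 28.1 and 30.1 CPM (0.16 ± 0.07, edgeR adjusted p = 0.0479). The ratio of Cep85l to Cep85 per length was 0.0882 and 0.0981 in Ctrl and 0.124 and 0.134 in Ell3 KD. The Cep85l call was lost without Ctrl replicate 1 (edgeR adjusted p = 0.361) and without Ell3 KD replicate 2 (edgeR adjusted p = 0.310). It was also lost with DESeq2 (adjusted p = 0.162), limma-voom (adjusted p = 0.0628), a floor of 5 CPM (edgeR adjusted p = 0.0598) and thinning to the shallowest total (edgeR adjusted p = 0.0879). The PLK4 receptor genes also parted: the ratio of Cep192 to Cep152 per length was 1.63 and 1.82 in Ctrl and 3.05 and 2.82 in Ell3 KD. In these 3 ratios, which were chosen after the values were seen, both Ell3 KD libraries lay above both Ctrl libraries. With 2 libraries a group an exact two-sided permutation test cannot give a p below 0.333, the value it gave for each. No other test of the difference between the genes of a pair was run. Of the other ratios taken, that of Plk4 to Sass6 per length went the other way, at 11.7 and 12.2 in Ctrl and 9.92 and 10.2 in Ell3 KD. That of Plk4 to Stil, given above, overlapped between the groups. Per merged exon length the ratio of Cep57l1 to Cep57 was 1.87 and 1.80 in Ctrl and 2.45 and 2.41 in Ell3 KD, and that of Cep192 to Cep152 was 1.05 and 1.18 in Ctrl and 1.97 and 1.83 in Ell3 KD.

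**Figure D4:**
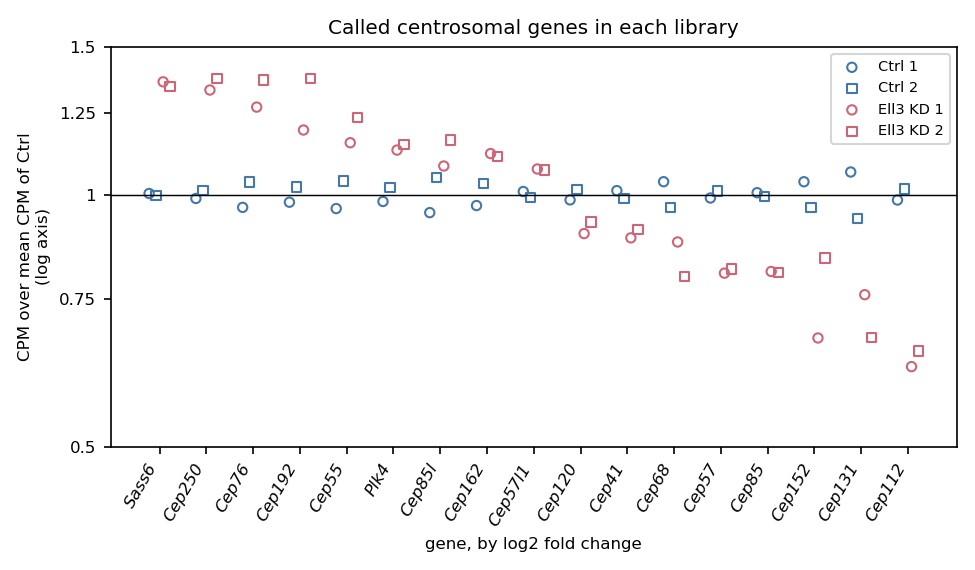
CPM of the 17 called centrosomal genes in each library over the mean CPM of the Ctrl libraries (log axis), ordered from the largest rise to the largest fall, with circles for replicate 1 and squares for replicate 2. Both Ell3 KD libraries (red) lie on one side of both Ctrl libraries (blue) for each gene, and the Ell3 KD libraries lie farthest from each other for Cep152, at 7.56 and 9.42 CPM.

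None of the 6 members that belong to the centriole appendages was called by edgeR, against 42.9% of all genes tested, and DESeq2 called none of them either. At an unadjusted p under 0.05 edgeR had 1 of them, Cep83. They were Cep164, Cep83 and Cep89 of the distal appendages, Cep128 and Cep170 of the subdistal appendages, and Cep19, which acts in ciliogenesis at the older centriole. Their log2 fold changes lay between -0.13 and 0.14, with 95% intervals within a 1.5-fold change either way for all 6. Nothing is read from a group of 6 genes. Outside the members, the appendage gene Sclt1 was called higher and the appendage gene Odf2 lower, as given below. Cep164 had 290.6 and 290.3 CPM in Ctrl and 274.0 and 283.6 CPM in Ell3 KD (-0.06 ± 0.03, edgeR adjusted p = 0.145). Cep89 was the closest to 0, at 34.4 and 34.3 CPM in Ctrl and 33.5 and 35.2 CPM in Ell3 KD. Cep83 had 36.0 and 40.0 CPM in Ctrl and 34.3 and 35.2 CPM in Ell3 KD (edgeR adjusted p = 0.0800), and without Ctrl replicate 1 it was called lower (-0.20, edgeR adjusted p = 0.0114).

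Of 9 genes of the cilium, its transition zone and the centriolar satellites, 1 rose (11.1%) and 2 fell (22.2%). The shares over all genes tested were 21.1% and 21.8%, and nothing is read from so few genes. Cep131, a satellite gene, had 7.52 and 6.62 CPM in Ctrl and 5.37 and 4.78 CPM in Ell3 KD (log2 fold change -0.47 ± 0.13, edgeR adjusted p = 0.00425). Cep41, whose product promotes tubulin glutamylation in cilia, went from 118.9 and 116.4 to 104.5 and 106.9 CPM (-0.16 ± 0.04, edgeR adjusted p = 0.00205). Cep162, which encodes a microtubule-binding protein of the transition zone, rose from 60.7 and 64.4 to 70.0 and 69.4 CPM (0.16 ± 0.05, edgeR adjusted p = 0.00763). The Cep162 call was lost without Ctrl replicate 1 (edgeR adjusted p = 0.0978) and without Ell3 KD replicate 1 (edgeR adjusted p = 0.0543). Cep290, the transition zone gene, had 14.9 and 15.0 CPM in Ctrl and 14.2 and 15.2 CPM in Ell3 KD and was not called (edgeR adjusted p = 0.834), nor were Cep78, Cep126 and Cep350, with log2 fold changes of 0.06, 0.32 and 0.10. The satellite gene Cep72, at 9.93 and 8.49 CPM in Ctrl and 7.23 and 8.12 CPM in Ell3 KD, missed the threshold (edgeR adjusted p = 0.0622) but was called lower without Ctrl replicate 2 (-0.38, edgeR adjusted p = 0.0152). With the length and GC trend removed, Cep78 of this role and Cep135 of centriole assembly were called higher.

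The remaining 5 genes held 2 rises (40%) and 1 fall (20%), against 21.1% and 21.8% of all genes tested. Nothing is read from counts this small. Cep55, which encodes the midbody protein that brings the ESCRT machinery to the last step of cell division, had 50.6 and 54.5 CPM in Ctrl and 60.6 and 64.9 CPM in Ell3 KD (log2 fold change 0.25 ± 0.05, edgeR adjusted p = 2.38e-04). Cep85l, described above, was the other rise. Cep112 showed the largest change of any member, from 2.32 and 2.39 to 1.47 and 1.53 CPM (-0.65 ± 0.22, edgeR adjusted p = 0.0192), at counts of 106, 118, 130 and 99 in the 4 libraries. Its call was lost without Ell3 KD replicate 1 (edgeR adjusted p = 0.0958) and without Ell3 KD replicate 2 (edgeR adjusted p = 0.0624). Cep70 had 104.5 and 109.2 CPM in Ctrl and 101.2 and 103.3 CPM in Ell3 KD (-0.06 ± 0.04, edgeR adjusted p = 0.200), and Cep95 overlapped between the groups (edgeR adjusted p = 0.216).

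On GRCm38, Plk4 lies on chromosome 3 from 40800019 to 40816883, Sass6 on chromosome 3 from 116594982 to 116631004, Cep152 on chromosome 2 from 125563088 to 125625113, Cep85 on chromosome 4 from 134129858 to 134187112, Cep57 on chromosome 9 from 13807792 to 13827107, Cep57l1 on chromosome 10 from 41718840 to 41809871, Pcnt on chromosome 10 from 76351263 to 76442786 and Cep164 on chromosome 9 from 45766946 to 45828691. The counts are given per gene, and whether they include reads within introns is not given in the sources used here.

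Beyond the members, 35 genes of acentriolar microtubule-organizing centers and spindle poles were listed, all of them tested. Of these 7 rose (20%) and 12 fell (34.3%), against 21.1% and 21.8% of all genes tested, with a median log2 fold change of 0.02. Plk1, the mitotic kinase gene, was the most abundant in CPM, at 1322 and 1314 CPM in Ctrl and 1157 and 1129 CPM in Ell3 KD (-0.21 ± 0.03, edgeR adjusted p = 1.14e-06). Tacc3, which encodes a spindle protein recruited by Aurora A, had 1238 and 1231 CPM in Ctrl and 1189 and 1201 CPM in Ell3 KD and was not called (edgeR adjusted p = 0.163). The dynein adaptor gene Bicd2 fell by 0.47 ± 0.06 (edgeR adjusted p = 1.08e-06). The gamma-tubulin ring genes Tubgcp4 and Tubg2 fell by 0.83 ± 0.12 and 0.26 ± 0.04, the latter a near copy of Tubg1 with which it could share reads. Tubgcp4 had 7.90 and 8.55 CPM in Ctrl and 4.50 and 4.73 CPM in Ell3 KD (edgeR adjusted p = 6.18e-06). Of its exon length, 26.1% overlaps annotations on the opposite strand, with 25.4% in Trp53bp1.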

How the data were processed

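Gene counts of 4 libraries from mouse GV oocytes were analysed, grouped by the sample titles. Per the labels' protocols, cDNA was made by Smart-seq2, amplified for 16 cycles and read as paired 150-bp ends. The deposited values are raw counts, 1 row per symbol. The authors used FastQC 0.11.5, HISAT2 2.2.1.0, featureCounts and build mm10, per the submitters' processing notes. Annotation, strand setting and the treatment of multi-mapping reads are not given in the sources used here, so reads of paralogs and overlapping genes are assigned with less certainty, and PCR copies were not marked by molecular identifiers.

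Genes were tested with edgeR 4.0.16 in R 4.3.3 (filterByExpr, TMM, glmQLFit, glmQLFTest, two-sided, no covariates) over all 4 libraries, with Benjamini-Hochberg adjustment over the 17879 genes tested. SE is the log2 fold change over the square root of F, and 95% intervals used 26.3 degrees of freedom. DESeq2 1.42.0, limma 3.58.1, other scalings, filters, thinning, left-out libraries, a replicate block, an assumed spread and a length and GC correction were alternatives. Fits were tested on simulated data. Lengths, GC content, coordinates and overlaps came from GENCODE M21 (GRCm38), in which 96.8% of the tested symbols matched a single gene, and promoter windows from RefSeq (GRCm38.p6). Members, role lists, motifs and the naming rule (called, groups apart, 5 CPM or more; the 6 of highest level per length; from each further list the 2 most abundant and up to 4 called with the smallest p) were chosen with earlier results of these data known. One member is counted but not reported by name here.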

Additional observations from a re-analysis of the deposited data

How the results depend on the processing

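Library number, with 2 per group, and an unknown link between libraries and animals limit every call. Of the 17 calls, 9 held under all 13 alternatives other than the assumed coefficient of variation of 0.2. Under that setting members called higher and lower fell to 0 and 0, and all genes to 861 and 1103. DESeq2 called 5 members lower in place of 8. Leaving out 1 library in turn gave 5 to 8 members called lower and 6 to 8 higher. With the length and GC trend removed the members' median was 0.0597, and Cep120, Cep57l1 and Cep68 were no longer called. Thinning each library to the shallowest total gave 7 higher and 9 lower. Same-numbered libraries showed little shared deviation (r = 0.0399 over 9703 genes at 5 CPM or more). With 2 libraries per group this is a single correlation, and it cannot tell whether the numbers pair the libraries. The replicate block gave 9 higher and 8 lower, the same 17 genes. The log2 fold change of Ell3 stayed between -1.79 and -1.52.

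Some genes with small differences that had not passed the test changed sign. Cep89 (-0.0014) was at 0.0041 with DESeq2, 0.0023 with RLE size factors, 0.0062 with upper-quartile factors, 0.0110 without the count filter, 0.0072 after thinning, 0.0816 with the trend removed and -0.0337 to 0.0397 without 1 library. Cep170 (-0.011) was at 0.0015 without the filter, 8.1e-04 after thinning, 0.0178 with the trend removed and -0.0713 to 0.0456 without 1 library. With the trend removed Pcnt, Cep164, Cdk5rap2, Tacc3 and Ccdc14 were at 0.0646, 0.0597, 0.0450, 0.0341 and 0.0042. Without 1 library in turn Cdk5rap2 ranged -0.0617 to 0.0014, Cep290 -0.0667 to 0.0261, Stil -0.13 to 0.21, Ccdc14 -0.0509 to 0.0073 and Bbs4 -0.0614 to 0.0313. The cause of these changes was not tested.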

Other observations

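Of 32 centriole, satellite and cilium genes without a Cep symbol, all tested, 9 rose (28.1%) and 2 fell (6.25%) in Ell3 KD, against 21.1% and 21.8% of all genes tested, with a median log2 fold change of 0.05. In all 34.4% were called, against 42.9%, and the difference was not tested. Sclt1, a distal appendage gene, rose by 0.35 ± 0.05 (edgeR adjusted p = 2.06e-06) from 57.7 and 61.3 to 73.3 and 78.2 CPM. Poc5, of the centriole lumen, rose by 0.22 ± 0.05 (edgeR adjusted p = 7.26e-04). Of Poc5 exon length, 25.7% overlaps the opposite-strand gene Ankdd1b. Odf2, of the subdistal appendages, fell by 0.28 ± 0.04 (edgeR adjusted p = 2.72e-06), from 126.9 and 130.0 to 103.5 and 108.3 CPM, and Spice1, a centriole assembly gene, fell by 0.23 ± 0.05 (edgeR adjusted p = 7.29e-04). The most abundant in CPM, Bbs4 and Ccdc14, were not called (edgeR adjusted p = 0.772 for Bbs4, edgeR adjusted p = 0.590 for Ccdc14). Cetn1, singled out after its value was seen, had 2 counts in each Ctrl library and 22 and 15 in the deeper Ell3 KD libraries. In CPM it lay at 0.044 and 0.041 in Ctrl and at 0.25 and 0.23 in Ell3 KD. The Ctrl counts lie under the 3 counts taken as a floor.

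Deup1, listed as a marker of ciliated epithelium and singled out after its value was seen, encodes a paralog of CEP63 that builds centrioles in multiciliated cells. It had 7.83 and 5.16 CPM in Ctrl and 2.99 and 2.74 CPM in Ell3 KD and was called lower (-1.17 ± 0.17 on the log2 scale, edgeR adjusted p = 3.82e-06). The ciliated cell regulator gene Foxj1 had no count and Mcidas at most 0.203 CPM in any library, while Cep63 itself overlapped between the groups at 14.2 and 15.0 CPM in Ctrl and 13.97 and 14.5 CPM in Ell3 KD.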
